A study of Mus musculus with 4 samples.

Results

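Cells that divide rapidly must make purine and pyrimidine nucleotides, and the folate-bound carbon units that go into them, at a high rate. The 36 genes described here encode enzymes of these pathways: 14 of purine synthesis and salvage, 7 of pyrimidine synthesis, 7 that make or supply deoxynucleotides and 8 of serine synthesis and folate one-carbon metabolism. The list was drawn up by enzyme function, with earlier results of these data known, and all 36 were present among the 37310 genes of GENCODE M1, an annotation of the mm9 assembly of the mouse genome. The annotation gave the symbol Nme2 to a pair of entries, and the one that reads through from the Nme1 promoter was not used.

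Myc is a transcription factor that dimerizes with Max and binds DNA at E-Boxes, whose canonical sequence is CACGTG. Max also pairs with other proteins of the same family, so a site with Max need not hold Myc. Nucleotide synthesis genes are long-known Myc targets in other cells.

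ChIP-Seq was done on E14 mouse embryonic stem cells (ESCs), 1 library for each of 4 samples. For Bio-Myc, Myc with an N-terminal biotin tag was expressed from an EF1α promoter in a single stable clone and pulled down on Streptavidin beads. Max was pulled down with anti-Max from wild-type parental cells. The controls were a mock Streptavidin ChIP, from parental wild-type cells by its label and from cells with the biotin ligase BirA but no tagged protein by the methods, and an anti-IgG ChIP on wild-type cells. The peak lists of Bio-Myc (3962 peaks) and Max (11570 peaks) were used, the controls having entered the authors' peak calling. They hold positions and scores but no read counts, so depth is unknown, a missing peak may lie below detection, and no value below has an error between cultures. The lists could not be used to check the cell type by its markers.

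Transcription start sites (TSSs) were taken from every annotated transcript, and genes with a peak no more than 1 kb from such a site are called bound here. Peak scores are the MACS p-value against the control as −log10, times 10, and start at 80. It depends on depth and on the control, so scores were compared within a list, and for some peaks the rank in the list is given as well, 1 being the highest.

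A Bio-Myc peak was found at 28 of the 36 genes (77.8%), where 14.6% of all 22380 protein-coding genes had one. A Max peak was found at 30 (83.3%), against 34.8% of protein-coding genes. Both peaks were found at 27 (75.0%), against 12.7%. Max alone was found at 3 genes (Rrm1, Dut and Dck), Bio-Myc alone at Hprt, and neither at 5 (Prps1, Prps2, Gmps, Ctps2 and Tk1), where 63.2% of protein-coding genes had neither. With 1 library per ChIP, these shares are descriptions of the lists and were not tested. The authors reported that Bio-Myc peaks were more frequent at the starts of highly expressed genes. The lists hold no expression values, so the listed genes were not compared with genes of like expression.

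The deoxynucleotide group had the smallest share of genes with Bio-Myc. All 8 one-carbon genes had both peaks, as did 6 of 7 pyrimidine genes and 10 of 14 purine genes. Of the 7 deoxynucleotide genes, 6 had a Max peak and 3 a Bio-Myc peak, where 14.6% of protein-coding genes had Bio-Myc. Max without Bio-Myc was common in general, at 4956 of the 7788 protein-coding genes with Max (22.1% of all protein-coding genes). Outside that group, 25 of 29 of the listed genes had Bio-Myc and none had Max alone. This contrast did not carry over to a wider list of other pathway genes described below, where every group had Max more often than Bio-Myc.

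**Figure D1:**
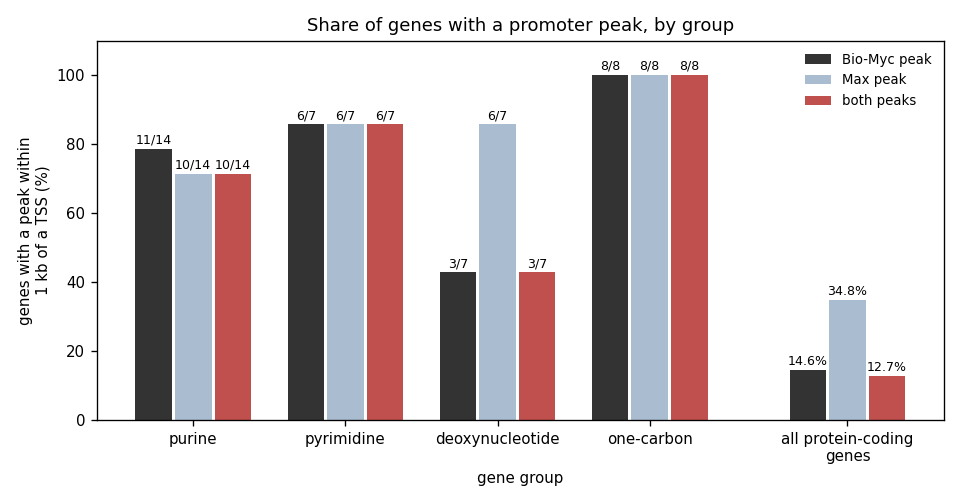
Share of genes (%) with a Bio-Myc peak, a Max peak or both within 1 kb of a TSS, for the 4 gene groups and for all protein-coding genes, with the count of genes above each group bar. The bars have no error because each list is 1 library. The one-carbon bars reach 8 of 8, and the deoxynucleotide group has 6 of 7 genes with Max but 3 of 7 with Bio-Myc.

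Chromosome X was poor in peaks in both lists, with Bio-Myc at 5.58% and Max at 4.4% of its 932 protein-coding genes. It holds 4 of the 36 genes (Prps1, Prps2, Hprt and Ctps2), of which 1 had a Bio-Myc peak and none a Max peak. On the autosomes, 24 of the 25 purine, pyrimidine and one-carbon genes had both peaks, the exception being Gmps. None of the deoxynucleotide genes is on chromosome X, so their lower Bio-Myc count does not move when that chromosome is left out. Chromosome 8, which was rich in Max peaks (60.6% of its protein-coding genes), holds Aprt and Dhodh, which had both peaks (Bio-Myc was at 16.7% of its genes). What the chromosome or the CpG content described next adds to these counts was not tested.

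Promoters rich in CpG were bound more often than others. A promoter was called CpG-rich when a 500-bp window within 1 kb of a TSS had at least 55% G+C and a CpG content of at least 0.75 of that expected from its bases, a limit set after the data were seen. Of the 36 promoters, 31 were CpG-rich, against 50.6% of all protein-coding genes. Bio-Myc was at 26 of these 31 (26.3% of all CpG-rich promoters) and Max at 28 (59.3%).

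E-Boxes lay under the Bio-Myc peaks of 19 of the 28 bound genes. To show what these sites look like, the E-Box nearest to the peak centre is printed for the 3 highest-scoring genes of each group that hold one (only 2 deoxynucleotide genes do). Each line is 30 bases of mm9, 5′ to 3′ on the strand of the gene, with CACGTG in capitals.
Ppat: aacggagcctccCACGTGcagagaaagtag
Paics: ctactttctctgCACGTGggaggctccgtt
Atic: tgcctgcctacgCACGTGgcctgtccgtcc
Nme1: agcttgatacgcCACGTGggctcgcctttg
Nme2: gtggcaggaaccCACGTGgcttcctgggcc
Cad: cgcgcagcgagcCACGTGgaccaactccgg
Dtymk: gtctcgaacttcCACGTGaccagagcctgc
Tyms: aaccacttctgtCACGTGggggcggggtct
Shmt1: tggttcccggagCACGTGctgggctgttag
Mthfd1: gaggtccctgagCACGTGggttgtgctgtc
Mthfd1l: cacgccccgctcCACGTGcaccgcccgcct

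The Ppat and Paics lines are the same site read on its opposite strands (chr5:77380378-77380407), which lies where the starts of these divergent genes overlap. It covers an annotated TSS of Paics and is in UTR exons of both genes. The Atic site (chr1:71603776-71603805) is 1 bp downstream of a TSS in a UTR exon, and the Cad site (chr5:31357218-31357247) is 46 bp downstream of a TSS in a UTR exon. The Nme1 site (chr11:93829351-93829380) is in an intron 218 bp downstream of a TSS, and the Nme2 site (chr11:93816986-93817015) is in a UTR exon 94 bp downstream of one. The sites of Dtymk (chr1:95698642-95698671) and Tyms (chr5:30400209-30400238) are upstream of their genes, at 143 and 64 bp from the nearest TSS. The Shmt1 site (chr11:60624663-60624692) is in a UTR exon, the Mthfd1 site (chr12:77356391-77356420) in a coding exon 19 bp downstream of a TSS, and the Mthfd1l site (chr10:6372790-6372819) in an intron 590 bp downstream of one.

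Over all the genes, the Bio-Myc peaks held 30 distinct CACGTG sites, of which 16 were in introns, 8 in UTR exons, 1 in a coding exon and 5 upstream. Of the 30, 29 also lay inside a Max peak of the same gene. The like share of sites under all Bio-Myc promoter peaks was not counted, and 82.9% of those peaks overlapped a Max peak. The site nearest the peak centre was a median of 78.5 bp from it (range 2 to 644 bp, 19 genes). Cytosine or guanine stood on both sides of CACGTG at 19 of the 30 sites (63.3%), as in the Nme2 and Cad lines, against 40.8% of the 2062 sites under all Bio-Myc promoter peaks. Thymine before the motif, on either strand, was found at 7 sites (23.3%) against 33.5%, and the Tyms line is an example.

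Purine synthesis starts from phosphoribosyl pyrophosphate, made by Prps1 and Prps2. These X-linked genes had no peak near them. The nearest Bio-Myc peaks were 3418 kb from the Prps1 TSS and 872 kb from a Prps2 TSS, and the nearest Max peaks 2926 and 1291 kb.

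The committed step that follows is catalysed by Ppat, and Paics carries out later steps of the same route. These divergent genes share a promoter on chromosome 5, where a Bio-Myc peak (chr5:77379433-77381505) scored 857, rank 30 of 3962, and a Max peak (chr5:77379701-77381323) scored 903, rank 231 of 11570. This was the highest score among the 36 genes in both lists. Both peaks held 3 E-Boxes and covered TSSs of both genes, so binding cannot be assigned to either gene alone.

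Gart, which encodes a multifunctional enzyme of the early steps, had a peak over its outermost TSS in both lists, scored 219 for Bio-Myc and 573 for Max. The same peaks were within 1 kb of a TSS of Son, transcribed in the opposite direction, whose start was nearer to both peak centres. A further Bio-Myc peak of Gart, downstream in the gene (chr16:91645281-91646334), scored 151 and overlapped no Max peak. Pfas, for the step between the Gart reactions, had peaks with scores of 193 (Bio-Myc) and 237 (Max), which covered an internal TSS but not its outermost one.

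Adsl, which cleaves a succinyl intermediate, had the lowest Bio-Myc score of the group, 91.45 (rank 3277), and a Max score of 239. Atic completes the ring to inosine monophosphate, and its promoter peaks scored 408 for Bio-Myc (rank 232) and 636 for Max, each with 2 E-Boxes.

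From inosine monophosphate, Impdh1 and Impdh2 lead to guanine nucleotides. Impdh1 had the stronger Bio-Myc peak, 365 (chr6:29161817-29162602), over an internal TSS with 1 E-Box, and a further one over its outermost TSS with a score of 105 (104.51) and none. Its Max peaks followed the same order, with 453.5 and 91.3. Impdh2 had scores of 199 (Bio-Myc) and 255 (Max) and 1 E-Box, 112 bp upstream of its only TSS.

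Gmps, which makes GMP, was the only autosomal purine gene with neither peak, although its promoter was CpG-rich. Its nearest Max peak was 10.8 kb upstream, scored 749 and lay at the promoter of Slc33a1, and its nearest Bio-Myc peak was 1553 kb away. Adss, on the branch to AMP, had both peaks with low scores, 119 for Bio-Myc (rank 2242) and 121 for Max (rank 7902).

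The salvage enzymes Hprt and Aprt recycle free purine bases. Hprt was the only one of the 36 genes with Bio-Myc and no Max, a pattern found at 1.98% of protein-coding genes (3.54% of those on chromosome X). Among genes with Bio-Myc, Max was missing at 33 of 52 on chromosome X, against 443 of 3275 over all protein-coding genes. Its Bio-Myc peak (chrX:50341134-50341951) covered the TSS with a score of 175 and no E-Box, and the nearest Max peak was 75.6 kb upstream. Aprt had Bio-Myc with a score of 127 and Max with a score of 509.

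**Figure D2:**
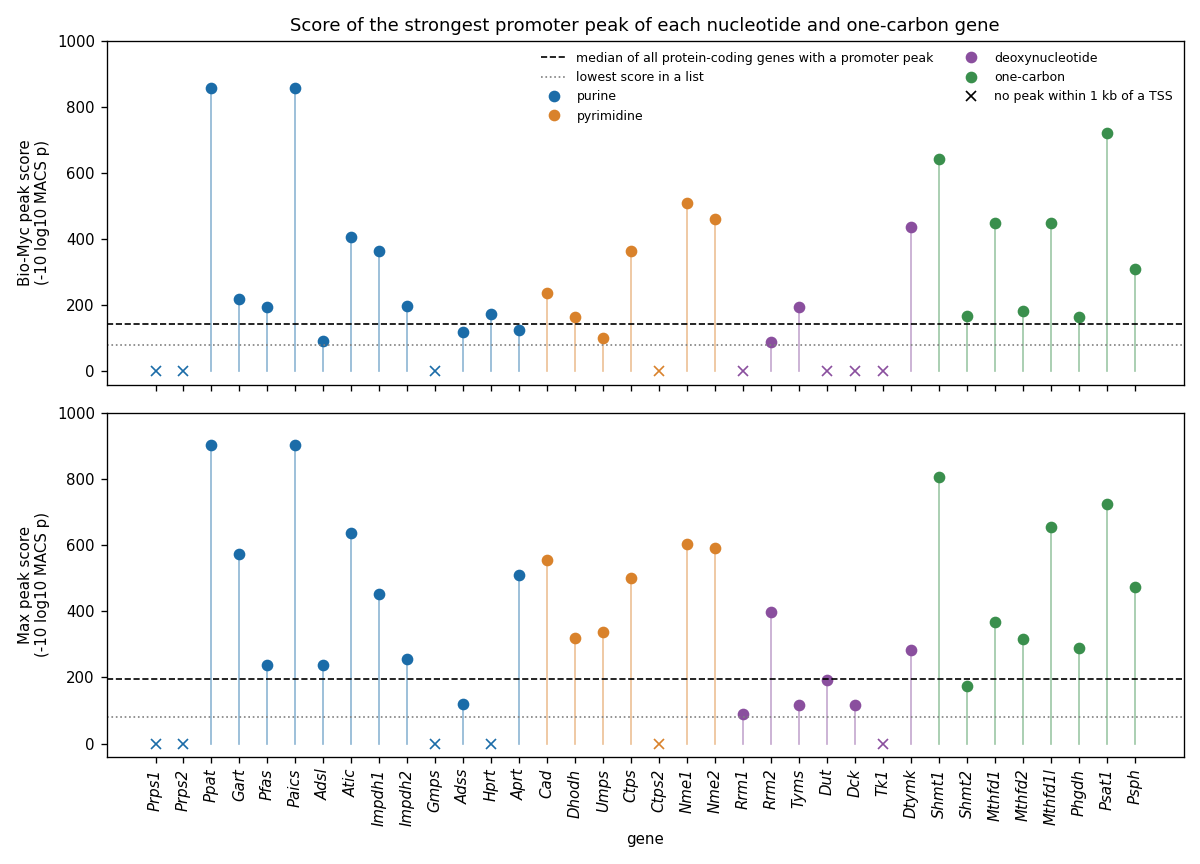
Score (−log10 of the p-value given by MACS, times 10) of the strongest peak within 1 kb of a TSS for each of the 36 genes, Bio-Myc above and Max below, coloured by group, with a cross at 0 where there was no peak. The dashed line is the median over protein-coding genes with a promoter peak (143 and 196) and the dotted line the lowest score of a list (80). Ppat and Paics, which share a peak, are highest in both panels, and the deoxynucleotide genes are low or without a peak in most cases.

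Pyrimidine synthesis is begun by Cad, a multifunctional enzyme and a classical Myc target gene. At Cad the Bio-Myc peak (chr5:31356733-31357693) scored 236 and the Max peak (chr5:31356770-31357708) 556. Their centres were 29 and 55 bp from a TSS, and both lay over the same E-Box. The window of a neighbouring gene, 0610007C21Rik, also takes in these peaks. Dhodh, the mitochondrial step, scored 164 for Bio-Myc and 318 for Max. Its Bio-Myc peak, 213 bp downstream of the nearest TSS, held 3 E-Boxes, and its wider Max peak covered the TSS and held 4. Umps, which completes UMP, had the lowest Bio-Myc score of this group (102, rank 2827) and a Max score of 338, with 2 E-Boxes in each peak.

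CTP synthase is encoded by the autosomal Ctps and the X-linked Ctps2. Ctps had a Bio-Myc score of 363 and a Max score of 502 over its outermost TSS and no CACGTG. Ctps2 has 12 annotated TSSs and no peak near any of them, the nearest being 989 kb away for Bio-Myc and 2763 kb for Max.

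Nme1 and Nme2 encode nucleoside diphosphate kinases, which act on ribo- and deoxynucleotides alike and were placed with the pyrimidine genes. They lie in tandem on chromosome 11, and each had its own peaks. The Bio-Myc scores were 511 at Nme1 (chr11:93828613-93829855, rank 128) and 461 at Nme2 (chr11:93816269-93817611, rank 173), and the Max scores 603 and 591. The peaks of both genes held 2 E-Boxes in each list. If these genes are counted with the deoxynucleotide group, 5 of 9 genes there had Bio-Myc and 8 of 9 had Max.

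The deoxynucleotide genes act downstream of both routes. Ribonucleotide reductase, which makes deoxynucleotides from ribonucleotides, has its large subunit encoded by Rrm1 and its small one by Rrm2. Rrm1 had a Max peak over its TSS (chr7:109590070-109590734) with a score of 89.1, near the lowest of the list (rank 10451), while its nearest Bio-Myc peak was 507 kb away. Rrm2 had a Max score of 397 (rank 1478) and a Bio-Myc score of 90.45 (rank 3358), the lowest Bio-Myc score of the 28 bound genes. Neither gene had a CACGTG under its peaks.

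Tyms, which methylates dUMP to dTMP, and Dtymk, the thymidylate kinase, had both peaks and 1 E-Box. At Tyms the Bio-Myc score was 194 (rank 1010) and the Max score 118 (rank 8088). At Dtymk they were 436 (rank 193) and 284 (rank 2671). Both genes stood higher in the Bio-Myc list than in the Max list for the length of each list, and Rrm2 stood the other way.

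Dut, which removes dUTP, and Dck, a deoxynucleoside salvage kinase, had Max alone, with scores of 191 and 115. Max without Bio-Myc was found at 22.1% of protein-coding genes. The Max peaks of Dut and Dck held no CACGTG and none of the 4 variant E-Boxes searched, and the nearest Bio-Myc peaks were 124 and 43.5 kb upstream. Tk1, the cytosolic thymidine kinase, had no Bio-Myc peak closer than 62.0 kb, and its nearest Max peak, 5721 bp upstream with a score of 214, was at the promoter of Afmid. Tk1 was also among the 5 of the 36 promoters that were not CpG-rich. The median Max score of the 6 bound deoxynucleotide genes was 154, below the 196 of protein-coding genes with a Max peak, while the other groups had medians of 481 (purine), 529 (pyrimidine) and 420.0 (one-carbon). Of these 6, only Rrm2 reached the range of the pyrimidine genes, 318 to 603.

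The one-carbon genes supply formyl groups for the purine ring and the methylene group for dTMP. Phgdh, Psat1 and Psph make serine from a glycolytic intermediate. Psat1 had the highest Bio-Myc score of the group, 721 (chr19:15998973-16000282, rank 50), and a Max score of 725 (rank 410). These peaks covered TSSs inside the annotated gene but not its outermost one, and held no CACGTG but 3 CACGCG sites. At Psph the scores were 308 (Bio-Myc) and 472 (Max), with none of the E-Box sequences searched. The same peaks were at a TSS of Cct6a, a chaperonin subunit gene 186 bp away on the opposite strand. The Cct6a TSS was nearer to the Bio-Myc peak centre (52.5 against 133.5 bp), and the Psph TSS was nearer to the Max peak centre. Phgdh scored 164 and 288, with 2 E-Boxes in an intron, and no TSS was covered by either peak.

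Shmt1 and Shmt2 transfer the carbon unit from serine to folate, in the cytosol and in mitochondria. Shmt1 had a Bio-Myc score of 642 (chr11:60623843-60625255, rank 75) and a Max score of 806 (rank 304), and both peaks held 2 E-Boxes. Shmt2 was lower, with 169 (rank 1298) and 174 (rank 5255) and 1 E-Box.

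The folate enzymes Mthfd1 (cytosolic), Mthfd2 and Mthfd1l (mitochondrial) were all bound. Mthfd1 had a Bio-Myc score of 450.1 and a Max score of 368, and Mthfd1l had 449 and 655. Mthfd2 scored 184 and 318, and its Bio-Myc peak, with 2 intronic E-Boxes, ended 8 bp short of the TSS. No gene of the one-carbon group was without either peak, and its lowest scores were 164 (Phgdh) in the Bio-Myc list and 174 (Shmt2) in the Max list.

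**Figure D3:**
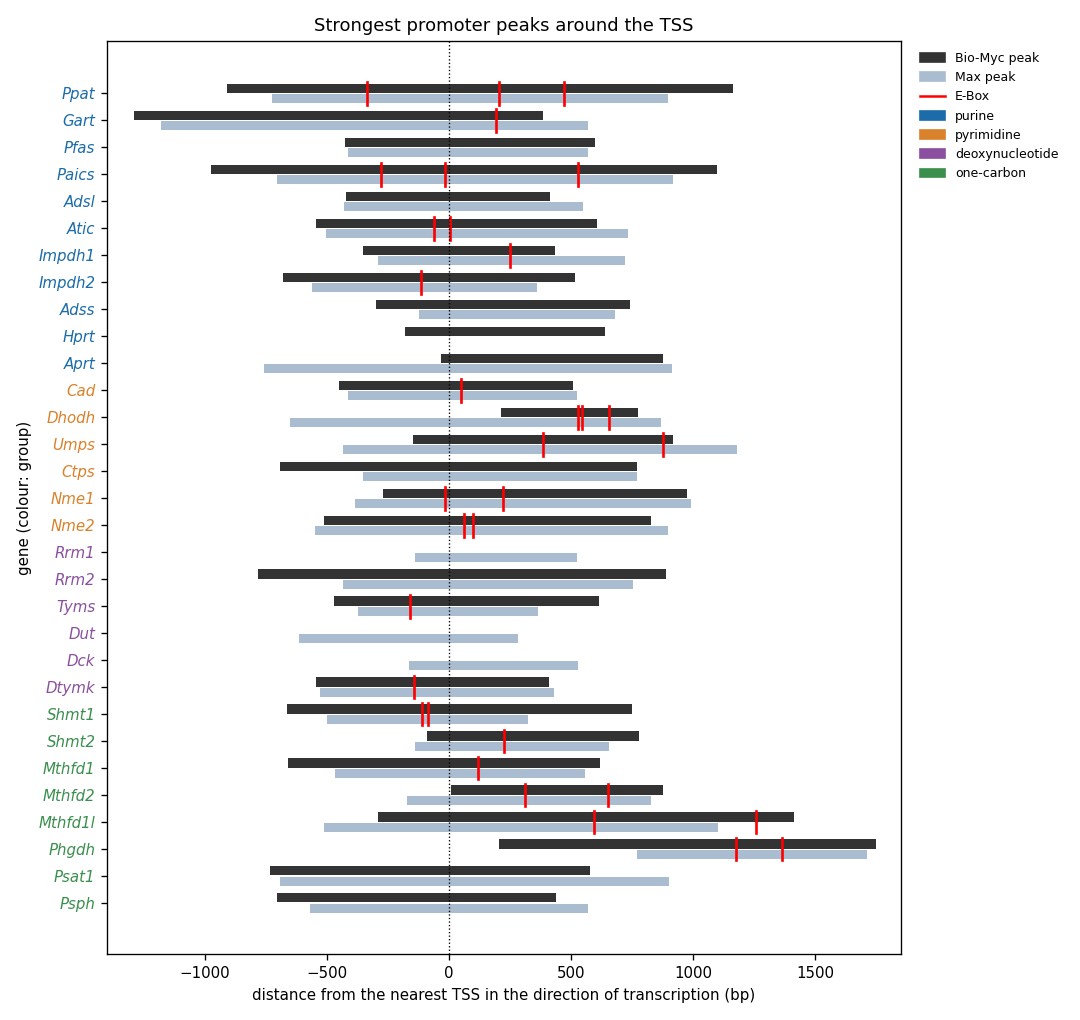
Extent of the strongest Bio-Myc peak (dark) and Max peak (light) of the 31 genes with a peak, in bp from the TSS nearest to the Bio-Myc peak centre (to the Max peak centre where there was no Bio-Myc peak), with transcription to the right. Red lines mark E-Boxes under the Bio-Myc peak, gene names are coloured by group, and most pairs of bars cover the TSS and lie over each other.

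The peaks of the lists coincided at these promoters. In all 27 genes with both, the strongest Bio-Myc and Max peaks overlapped, and their centres were a median of 83.5 bp apart (range 7.5 to 384.5 bp). The widest gaps were at Dhodh and Aprt, where the Max peak extended further upstream. Of the 29 distinct Bio-Myc peaks of these genes, 27 overlapped a Max peak, against 82.9% of the 2984 Bio-Myc promoter peaks. A peak covered a TSS in 25 genes for Bio-Myc (13% of protein-coding genes) and in 29 for Max (30%).

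The scores were also high within each list. The median score of the strongest promoter peak was 227 over the 28 genes with Bio-Myc, against 143 over the 3275 protein-coding genes with one, and 382 over the 30 genes with Max, against 196 over 7788. Of the 28, 12 had a peak in the top 10% of the Bio-Myc list, and of the 30, 14 had one in the top 10% of the Max list. The like share of protein-coding genes with a promoter peak was not counted, and 10% is not the share to compare with. It refers to all peaks of a list, whose median scores were lower, 129 for Bio-Myc and 160 for Max. By group, the Bio-Myc medians were 199 (purine), 299.6 (pyrimidine), 194 (deoxynucleotide) and 378 (one-carbon), and the ranges of all 4 groups overlapped.

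At stricter limits the genes stayed bound more often than protein-coding genes in general. With a score of at least 150 (a p-value of 1e-15), 23 of the 36 genes had Bio-Myc (6.85% of protein-coding genes) and 26 had Max (22.6%). With a score of at least 300, 13 had Bio-Myc (2.14%) and 19 had Max (9.98%). All 8 one-carbon genes passed 150 in both lists. Of the deoxynucleotide genes, 2 passed 150 for Bio-Myc and 3 for Max, so at this limit they were the group with the smallest share in both lists.

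**Figure D4:**
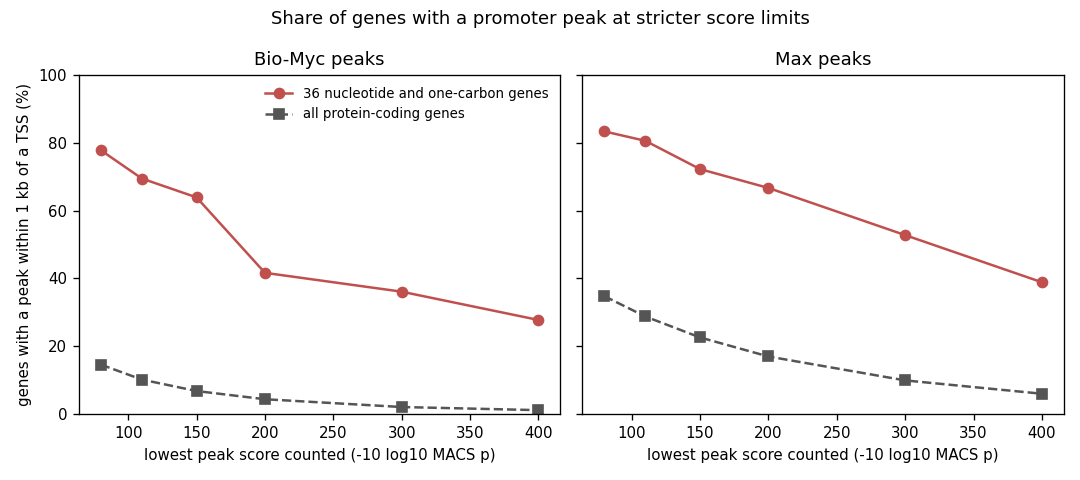
Share of genes (%) with a Bio-Myc (left) or Max (right) peak within 1 kb of a TSS, against the lowest score counted, for the 36 genes (circles) and all protein-coding genes (squares). At 80, the limit of the lists, the shares are 77.8% and 14.6% for Bio-Myc and 83.3% and 34.8% for Max, and the line of the 36 genes stays above the other at each limit up to 400.

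Genes with a high Bio-Myc score tended to have a high Max score. Spearman's rho was 0.73 over the 27 genes with both peaks, of which Ppat and Paics share theirs, and 0.39 over the 2832 protein-coding genes with both. These are correlations across genes within 1 pair of libraries, and genes are not replicates.

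CACGTG was found in 18 of the 29 distinct Bio-Myc peaks (62.1%), against 49.7% of all Bio-Myc promoter peaks, and in 18 of 30 Max peaks (60%), against 36.7%. Bound genes with it had a median Bio-Myc score of 365 (19 genes, the shared peak of Ppat and Paics entering for each), and those without it 175 (9 genes). The like medians over all promoter peaks were not counted, so the difference is not read as a trait of these genes. The peaks of these genes were somewhat wider than promoter peaks in general, with a median of 1085 against 1054 bp for Bio-Myc and 1006.5 against 858 bp for Max. In the central 200 bp of each peak the shares were 31.0% against 18.1% for Bio-Myc and 43.3% against 17.3% for Max. The 9 genes with Bio-Myc but no CACGTG under the strongest peak were Pfas, Adsl, Adss, Hprt, Aprt, Ctps, Rrm2, Psat1 and Psph. The variants searched, on both strands, were CACGCG and also CATGCG, then CACGAG and lastly CATGTG, and 8 of these 9 peaks held at least 1 of them (6 held CACGCG), Psph being the exception. CACGCG was in 44.8% of the Bio-Myc peaks of these genes and 55.5% of all Bio-Myc promoter peaks, and such short sequences are common in promoters.

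Genes with an E-Box near the start had Bio-Myc more often than those without one, though not in every case. CACGTG occurred within 1 kb of the outermost TSS in 21 of the 36 genes (27.8% of protein-coding genes), and 18 of the 21 had Bio-Myc, against 26.2% of all protein-coding genes with such a site. Without it, 10 of 15 genes had Bio-Myc, against 10.2% of protein-coding genes that lack it. The 3 genes with a site and no Bio-Myc were Prps1 and Prps2, with no peak, and Dut, with Max alone.

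A wider list of 68 other genes of the same pathways was bound less often. Of these, 17 had Bio-Myc (25%) and 37 had Max (54.4%), and all 17 had both, where the shares of all protein-coding genes were 14.6% for Bio-Myc, 34.8% for Max and 12.7% for both. The pyrimidine and purine genes of this list, with Bio-Myc at 11.8% and 20% of them, lay nearest to that background. The genes with both were 8 of 21 in one-carbon metabolism (among them Gcsh, Fpgs, Slc19a1 and Mat2a), 4 of 20 in purine metabolism (Ampd2, Gmpr2, Ak1 and Guk1), 3 of 10 among deoxynucleotide genes (Dctd, Dctpp1 and Itpa) and 2 of 17 in pyrimidine metabolism (Uck2 and Nme4). The highest Bio-Myc scores among them were 715 at Dctd, the dCMP deaminase, and 556 at Uck2, a uridine-cytidine kinase. Gcsh of the glycine cleavage system had 341, Fpgs, which adds glutamates to folate, 331, and the folate carrier Slc19a1 286. The degradative enzymes Dpyd, Xdh and Ftcd, also in that list, had no peak, and the difference between the lists was not tested.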

How the data were processed

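The authors sequenced the ChIP libraries on an Illumina HiScanSQ, kept reads that Bowtie 0.12.7 placed once on mm9 with up to 2 mismatches, collapsed duplicates and called peaks per library with MACS 1.4.1 (p-value limit 1e-08), against the mock ChIP for Bio-Myc and the IgG ChIP for Max. CASAVA 1.8 is also named in the submitters' processing notes. The deposited score is 10 times the negative log10 of the p-value. Unique mapping leaves out repeats, and a fixed p-value ties the number of peaks to depth, which is unknown.

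Peaks were set on the mm9 (NCBIM37) sequence and GENCODE M1, and no peak lay outside its chromosomes. A peak counted when it overlapped the window within 1 kb of any TSS by at least 1 bp. Coordinates are 1-based. The 36 genes and their groups, and the other pathway genes, were chosen with earlier results of these data known. Every gene of the list was to be named, with sequences for the 3 highest-scoring genes per group. No test was run, since each ChIP has 1 library, and shares over all protein-coding genes are given instead. The alternatives were other windows, TSSs, score limits, Max lists, motif windows, chromosomes and groupings. CpG-rich promoters and autosomes were added after the data were seen. Counting steps were tested on simulated data with 200 genes, and 8 of 8 returned the known answer. Python 3.11.15, pysam 0.24.0, scipy 1.17.1, matplotlib 3.10.9 and samtools 1.23.1 were used.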

Additional observations from a re-analysis of the deposited data

How the results depend on the processing

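Of 83 alternative values for 17 results, 75 stayed within 1.5 times the reported value. The count of genes with neither peak, reported as 5, rose to 8 with a score of at least 150 and to 8 with as many top Max peaks as there are Bio-Myc peaks, and fell to 2 without chromosomes X and 8, to 2 on autosomes alone and to 2 with CpG-rich promoters alone, where fewer genes or peaks were counted. The deoxynucleotide genes with Max went from 6 to 3 with a score of at least 150, and those with Bio-Myc from 3 to 5 with Nme1 and Nme2 added to the group. CACGTG was in 9 of the 29 Bio-Myc peaks in their central 200 bp, against 18 over the whole peak. With the other windows and TSSs and score limits of 110 and 150, the 28 genes with Bio-Myc ranged from 23 to 28 and the 30 with Max from 26 to 30. With as many top Max peaks as there are Bio-Myc peaks, 24 genes had Max. Because depth is unknown, a gene without a peak may have had binding that these libraries could not detect. The Max peak of Rrm1 and the Bio-Myc peaks of Rrm2 and Adsl lie near the lowest score of their lists, and a score limit of 110 removes them. It also removes the Bio-Myc peak of Umps (score 102), which leaves 5 pyrimidine genes with Bio-Myc.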

Other observations

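Peaks in the bodies of the 36 genes, beyond the promoters, were counted as well. The like share over all protein-coding genes was not counted, so the counts are not read as a trait of these genes. Most peaks of both lists lay within 1 kb of an annotated TSS (2984 of 3962 for Bio-Myc and 7884 of 11570 for Max). No Bio-Myc peak lay inside any of them outside the 1-kb windows, and there was 1 Max peak, at Tyms (chr5:30386203-30386684, score 81.3), centred 10132 bp downstream of the nearest TSS in a UTR exon.

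The nearest peaks of several unbound genes were at the promoters of other genes. Most peaks of both lists lay at promoters, so this is not particular to these genes. For Max these were Slc33a1 (peak 10.8 kb from Gmps), Afmid (peak 5.72 kb from Tk1) and Phf6 (peak 75.6 kb from Hprt). For Bio-Myc they were Mob1b (peak 43.5 kb from Dck), Myef2 (peak 124 kb from Dut) and Numa1 with Lrrc51 (peak 507 kb from Rrm1). These Bio-Myc peaks had scores of 87.2, 90.8 and 105 (104.64).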
